A study of Mus musculus with 4 samples.

Results

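The genes described here are 9 components of bone morphogenetic protein (BMP) signalling in mouse liver: the ligand gene Bmp6, the receptor-regulated effectors Smad1 and Smad5, their shared partner Smad4, the inhibitory Smad6 and Smad7, and the target genes Id1, Id2 and Id3. They were found by matching the RefSeq accession of each array probe to a gene symbol. All 9 were present, with 16 of the 41174 probes of the array, and all 9 were among the 31073 genes and accessions kept for analysis. The set was chosen on its log2 ratios of treated over untreated liver in these same 4 arrays, so those ratios are given as a description, with no test.

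The samples were livers of male C57Bl/6 mice, 3 months old, and all of them Wrn mutants; which allele they carry is not stated in the sources used here. Wrn encodes a RecQ helicase, and loss of the human gene causes Werner syndrome. The 4 treated mice had 0.4% vitamin C in the drinking water from weaning on, and the 4 controls were untreated Wrn mutants, so no wild-type liver enters the comparison. Each of 4 arrays compared 1 treated liver, labelled with Cy3, with 1 untreated liver, labelled with Cy5. No array had the dyes swapped (0 of 4), so an effect of the dye on a probe and an effect of the treatment cannot be told apart. In whole liver, more cells of a type and more RNA per cell cannot be told apart either.

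BMP ligands bind paired serine/threonine kinase receptors, which phosphorylate Smad1 and Smad5. These join Smad4, enter the nucleus and switch on target genes, among them the Id genes, whose proteins bind E-proteins and keep them off DNA. Smad6 and Smad7 are targets as well and feed back to block the receptors. In liver, Bmp6 comes mainly from sinusoidal endothelial cells and acts on hepatocytes, where the pathway drives the iron hormone hepcidin, encoded by Hamp.

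Promoter sequences are shown for 2 members with ratios above 0 on every array (Smad6 and Id2) and for Id3. A sequence is also shown for the ligand gene Bmp6, whose brighter probe had ratios near 0. Each is the 250 bases before a transcript start, 5′ to 3′ on the strand of the gene, from RefSeq on build GRCm38.p6. For Id2, Id3 and Bmp6 that start is also the edge of the annotated gene. The gene span of Smad6 reaches to 64022085, so the last bases of its window lie inside the span. The windows are chr9:64022060-64022309 (minus strand) for Smad6, chr12:25096093-25096342 (minus strand) for Id2, chr4:136143572-136143821 (plus strand) for Id3 and chr13:38345466-38345715 (plus strand) for Bmp6. Capitals mark GGCGCC, the core bound by Smad1 and Smad5, and GTCT, the short Smad box, on either strand.
Smad6: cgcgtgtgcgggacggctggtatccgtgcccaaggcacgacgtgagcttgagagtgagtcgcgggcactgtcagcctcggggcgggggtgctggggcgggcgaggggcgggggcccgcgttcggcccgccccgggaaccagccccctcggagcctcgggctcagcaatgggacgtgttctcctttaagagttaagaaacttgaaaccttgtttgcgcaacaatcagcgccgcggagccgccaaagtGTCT
Id2: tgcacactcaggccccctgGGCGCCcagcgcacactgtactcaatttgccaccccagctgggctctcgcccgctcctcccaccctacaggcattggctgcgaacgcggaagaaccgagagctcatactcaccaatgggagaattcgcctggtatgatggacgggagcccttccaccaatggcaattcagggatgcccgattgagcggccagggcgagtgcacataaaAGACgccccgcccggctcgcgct
Id3: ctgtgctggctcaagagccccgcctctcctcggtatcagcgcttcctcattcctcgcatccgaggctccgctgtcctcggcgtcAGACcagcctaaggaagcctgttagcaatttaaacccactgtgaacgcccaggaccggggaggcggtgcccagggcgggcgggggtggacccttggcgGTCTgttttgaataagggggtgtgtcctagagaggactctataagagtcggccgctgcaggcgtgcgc
Bmp6: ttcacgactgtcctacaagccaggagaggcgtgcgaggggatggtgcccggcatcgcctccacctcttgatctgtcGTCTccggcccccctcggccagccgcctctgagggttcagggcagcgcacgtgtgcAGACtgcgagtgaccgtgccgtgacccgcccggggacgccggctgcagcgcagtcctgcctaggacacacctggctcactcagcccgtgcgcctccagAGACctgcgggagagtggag
Promoters were matched for 6 of the 9 members: these 4, Smad1 and Smad5. GGCGCC was found in the Id2 window and in 1 of the 3 windows of Smad5, not in those of Smad1, Smad6, Id3 or Bmp6, and in 9.59% of 32851 promoter windows of the same length. GTCT was at 1 place each in the windows of Smad6 and Id2, at 2 in that of Id3 and at 3 in that of Bmp6, and the Smad6 match is the window's last 4 bases, inside the gene span; 82.9% of all windows hold it. GGCGCC followed after 5 bases by GTCT was in none of the 8 windows of the 6 matched members, and in 0.07% of all windows. The GC content of the 4 windows was 66.8% for Smad6, 62.8% each for Id2 and Id3 and 68.8% for Bmp6, against a median of 52.4%. A match is a description of letters only.

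Each value that follows is the log2 of treated over untreated signal (1 is a doubling), given for replicates 1 to 4 in that order, then as mean ± SD (n = 4). Where a gene has several probes, the brightest stands for it. All 16 probes were well above background in both channels on all 4 arrays, and none had a saturated spot (0 of 16). Median signals of all probes were 380 to 530 in Cy3 and 813 to 962 in Cy5. Replicate 2 stood apart over all genes: its ratios correlated with those of the others at r = 0.020, -0.15 and -0.18, while replicates 1, 3 and 4 correlated with each other at 0.60 to 0.78 (across genes, which are not independent replicates).

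The feedback inhibitors and Id1 and Id2 had ratios above 0 in every pair of livers, whereas the brightest probes of the ligand and the 3 effectors scattered around 0. The further Bmp6 probe had a mean of -0.30 ± 0.36. Of the 9 members, 4 were above 0 on all 4 arrays (Smad6, Smad7, Id1 and Id2) and 0 were below 0 on all 4; among all genes kept, 14.9% were above 0 and 16.1% below 0 on all 4. The members were chosen with these ratios in view, so nothing is read from that count. The median of the 9 means was 0.22, against -0.015 over all genes, and nothing is read from that difference either.

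**Figure D1:**
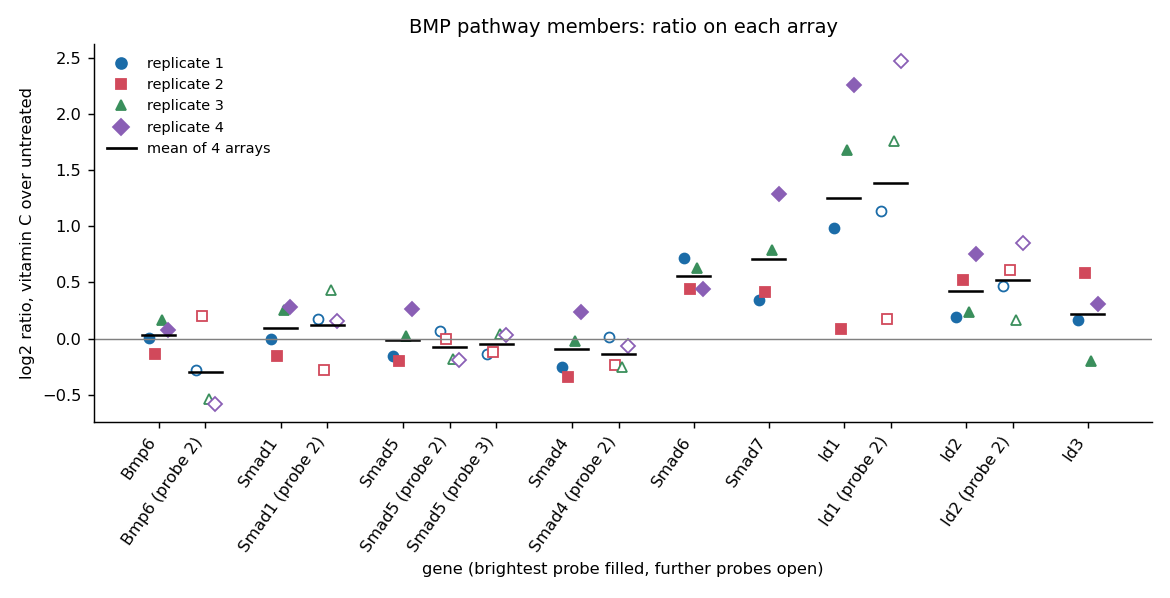
Log2 ratio of vitamin C over untreated (y axis) for each of the 16 probes of the 9 genes (x axis), with 1 point per array (filled for the brightest probe, open for further probes) and a bar at the mean of 4 arrays. Both Id1 probes fan out from near 0 on replicate 2 to above 2 on replicate 4, and Smad6 sits tightly between 0.44 and 0.71. The brightest probes of Smad1, Smad5, Smad4 and Bmp6 lie around 0, and the further Bmp6 probe runs from -0.59 to 0.20.

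Id1 encodes an inhibitor of basic helix-loop-helix factors and is among the most responsive BMP target genes. Its ratios were 0.98, 0.088, 1.68 and 2.25, a mean of 1.25 ± 0.93 and a mean fold of 2.38. The pair of replicate 2 was barely above 0, at a fold of 1.06, and that of replicate 4 reached 4.76. A further Id1 probe gave 1.14, 0.17, 1.76 and 2.47, a mean of 1.38 ± 0.97, in the same order of arrays. By mean ratio Id1 ranked 5 from the top of 31073. It was chosen on these ratios, so nothing is read from that rank. The mean without replicate 2 was 1.64, and without replicate 4 it was 0.92.

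The scatter of Id1 lay in the treated livers. Uncorrected Cy5 signals of the untreated livers were 1330, 1424, 1446 and 1490, and Cy3 signals of the treated livers were 1617, 768, 1690 and 3889. After normalization within and between arrays, the log2 levels of the untreated livers were 9.997, 10.01, 9.87 and 9.97. Those of the treated livers were 10.98, 10.10, 11.55 and 12.22. The SD was thus 0.063 among untreated livers and 0.90 among treated ones. Among the 1000 genes nearest to Id1 in mean intensity, 13.7% had a smaller SD in untreated livers and 100% had a smaller SD in treated livers. Without scaling between arrays the SDs were 0.14 and 0.95, and these shares were 40.8% and 100%, so the narrow spread of the untreated livers depended on the scaling and the wide spread of the treated ones did not. The further probe had SDs of 0.13 and 0.85. With scaling, the ratio of the SDs was 14.3, rank 32 of 31073 genes, where the median gene had 1.23. No rank was taken without scaling or for the further probe. Id1 was chosen on ratios that these treated levels enter, so the rank and the shares are a description only. Dye and treatment coincide here as well.

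**Figure D2:**
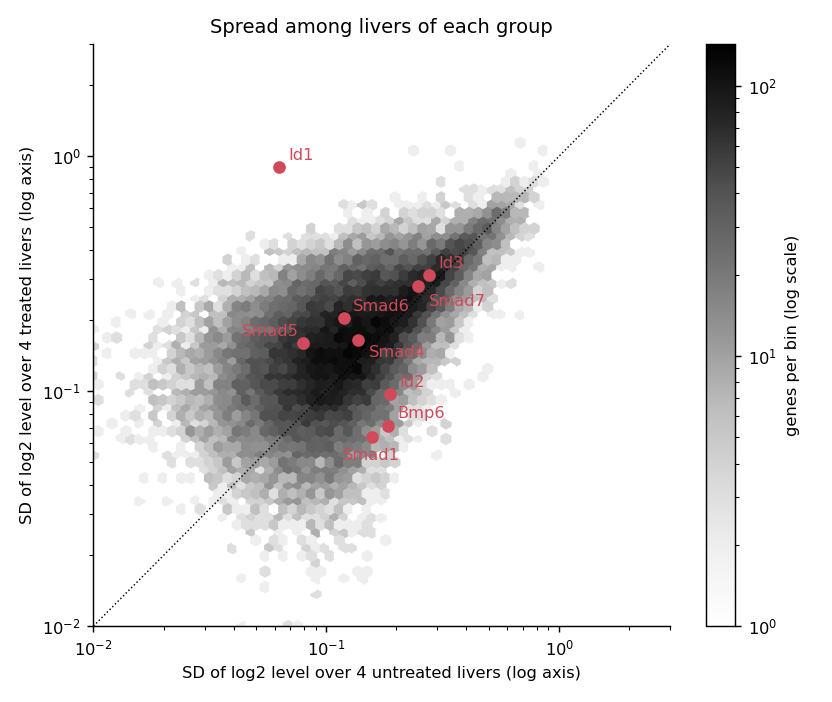
SD of the log2 level over the 4 untreated livers (x axis, log scale) against that over the 4 treated livers (y axis, log scale) for all genes kept, with darker bins holding more genes, the 9 members as red points and equality as a dotted line. Id1, at 0.063 and 0.90, stands above the cloud, and the other 8 members lie within it.

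Id2, a second Id gene with high signal in liver, had ratios of 0.20, 0.52, 0.24 and 0.75, a mean of 0.43 ± 0.26. Its further probe gave 0.47, 0.61, 0.17 and 0.85, a mean of 0.52 ± 0.28. Both probes were above 0 on all 4 arrays, with replicate 4 highest, and the mean of the brightest was 0.27 without loess. The log2 levels were 14.97, 14.63, 14.87 and 14.58 in untreated and 15.17, 15.16, 15.10 and 15.33 in treated livers. The SD was 0.19 in untreated and 0.097 in treated livers, and the order turned without scaling between arrays (0.18 and 0.23) and with the further probe (0.12 and 0.19). Id3, the third of the Id genes measured as a member, had ratios of 0.16, 0.59, -0.20 and 0.31, a mean of 0.22 ± 0.33. It was above 0 on 3 of 4 arrays, with replicate 3, where Id1 was at 1.68, below 0. Its mean was 0.088 without loess, 0.092 without replicate 2 and 0.35 without replicate 3. Its level in the livers of replicates 1 and 2 was also high when treated (13.05 and 12.97) compared with replicates 3 and 4 (12.40 and 12.56). The 3 Id genes therefore ordered the arrays differently: replicate 2 was lowest for Id1 and highest for Id3.

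Smad6 encodes an inhibitory Smad that acts mainly on BMP receptors. Its ratios were 0.71, 0.44, 0.62 and 0.44, a mean of 0.56 ± 0.14 and a mean fold of 1.47. These were the most even of the 4 members above 0 on every array: the lowest pair stood at a fold of 1.36 and the highest at 1.64. The log2 levels were 10.23, 9.999, 10.02 and 10.20 in untreated and 10.94, 10.44, 10.64 and 10.64 in treated livers. Every treated liver was above every untreated one, with or without scaling between arrays. Nothing is read from this, since Smad6 was chosen on its ratios and the share of all genes so separated was not counted. Smad6 has 1 probe, so no further probe bears on its value.

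Smad7, the inhibitory Smad shared by the BMP and TGF-beta branches, had ratios of 0.35, 0.41, 0.79 and 1.28, a mean of 0.71 ± 0.43 and a mean fold of 1.63. Replicate 4 was highest, as for Id1 and Id2. The levels in untreated livers were 10.95, 10.55, 10.52 and 10.37, and in treated livers 11.29, 10.96, 11.30 and 11.65. The untreated liver of replicate 1 nearly reached the treated liver of replicate 2. For Smad7, Id1 and Id2 the groups did not overlap on this scale, and they overlapped when arrays were not scaled to each other. The groups overlapped on both scales for the remaining 5 members. How many of all genes kept had groups that did not overlap was not counted. The members, Smad6 included, were chosen on their ratios, so nothing is read from this separation.

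**Figure D3:**
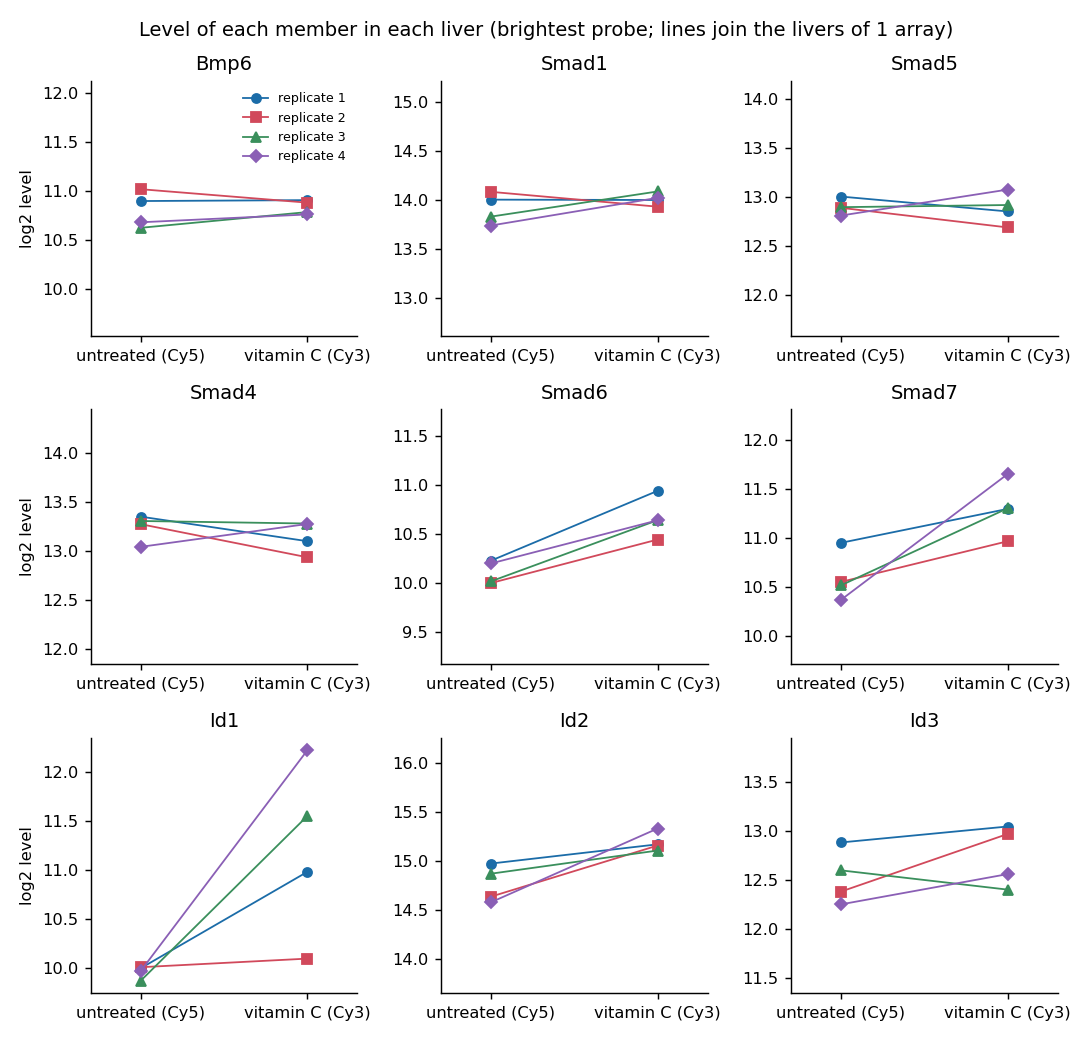
Normalized log2 level (y axis, all panels spanning the same height) of each member in the untreated (Cy5) and treated (Cy3) liver of each array, joined by a line. The untreated livers nearly coincide for Id1 while its treated livers spread from 10.10 to 12.22; all lines climb for Smad6, Smad7, Id1 and Id2.

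The effectors had ratios around 0. Smad1, which carries the BMP signal to the nucleus, had ratios of -0.0037, -0.15, 0.26 and 0.28, a mean of 0.096 ± 0.21. A further Smad1 probe had a mean of 0.12 ± 0.30, and without loess the mean of the brightest was -0.025. Smad5, which acts alongside Smad1, had -0.15, -0.20, 0.022 and 0.26, a mean of -0.016 ± 0.21. Its further probes, both dimmer, had means of -0.076 ± 0.13 and -0.047 ± 0.094, and the mean was 0.061 with Agilent's processed signals. Smad4, the partner of all receptor-regulated Smads, had -0.25, -0.34, -0.026 and 0.23, a mean of -0.095 ± 0.26, and its further probe had -0.14 ± 0.13; its mean ran from -0.21 without loess to -0.014 without replicate 2. For all 3 effectors the brightest probe was lowest on replicate 2 and highest on replicate 4.

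Bmp6, the ligand gene, had ratios of 0.0092, -0.14, 0.16 and 0.080 with its brightest probe, a mean of 0.028 ± 0.13. The further probe, nearly as bright at a mean log2 intensity of 10.79 against 10.82, gave -0.28, 0.20, -0.54 and -0.59, a mean of -0.30 ± 0.36. The probes had opposite signs on all 4 arrays (same sign on 0 of 4), and they differed by up to 0.70. The direction of Bmp6 is therefore not settled: its mean was -0.13 when loess was left out, -0.018 from the scanner's processed signals and -0.14 over both probes. By contrast, the probes of Id1 and of Id2 had the same sign on all 4 arrays and differed by at most 0.22 and 0.27.

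The 5 genes with ratios closest to those of Smad6, by Euclidean distance over the 4 arrays among 16953 genes with a symbol and well above background in both channels, were Rab1b (0.16), Arpc4 (0.21), Aspscr1 (0.22), Drap1 (0.24) and Stt3a (0.25). The 5 closest to Id1 were Abcd2 (0.76), Gsta2 (0.89), Krt23 (1.03), Cxcr6 (1.07) and Vldlr (1.08). Few genes had ratios as large as those of Id1, so its distances and those of Smad6 are not compared. Abcd2, a peroxisomal fatty acid transporter gene, had 1.098, -0.52, 1.35 and 1.96. No other member was among these 10 genes.

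Other genes of the pathway were tested with limma, each gene's 4 ratios against 0, with Benjamini-Hochberg adjustment over all 31073 genes. No gene of the series passed an adjusted p of 0.05 (0 of 31073, or 0%), so none of the 86 other pathway genes kept did. At an unadjusted p under 0.05, which is not a call, there were 29 of the 86, 17 higher and 12 lower, or 33.7%; over all genes it was 8600, or 27.7%, with 11.1% higher and 16.5% lower. The list medians lay between -0.038 and 0.082. The counts depended on replicate 2, without which 8764 of 31073 genes passed the adjusted threshold, 24 of the 86 pathway genes among them (12 higher, 12 lower). They also depended on the normalization and on the fit. Without loess, with median centring in its place, 9628 of 31073 genes passed, 25 of the 86 among them. Where the channels were fitted separately with the array as replicate block, 981 of 31062 passed. The 2 pathway genes among those were Atoh8 (adjusted p = 0.0253, limma) and Tmprss6 (adjusted p = 0.0427, limma). In each of these settings the share that passed was no higher among the pathway genes than among all genes.

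**Figure D4:**
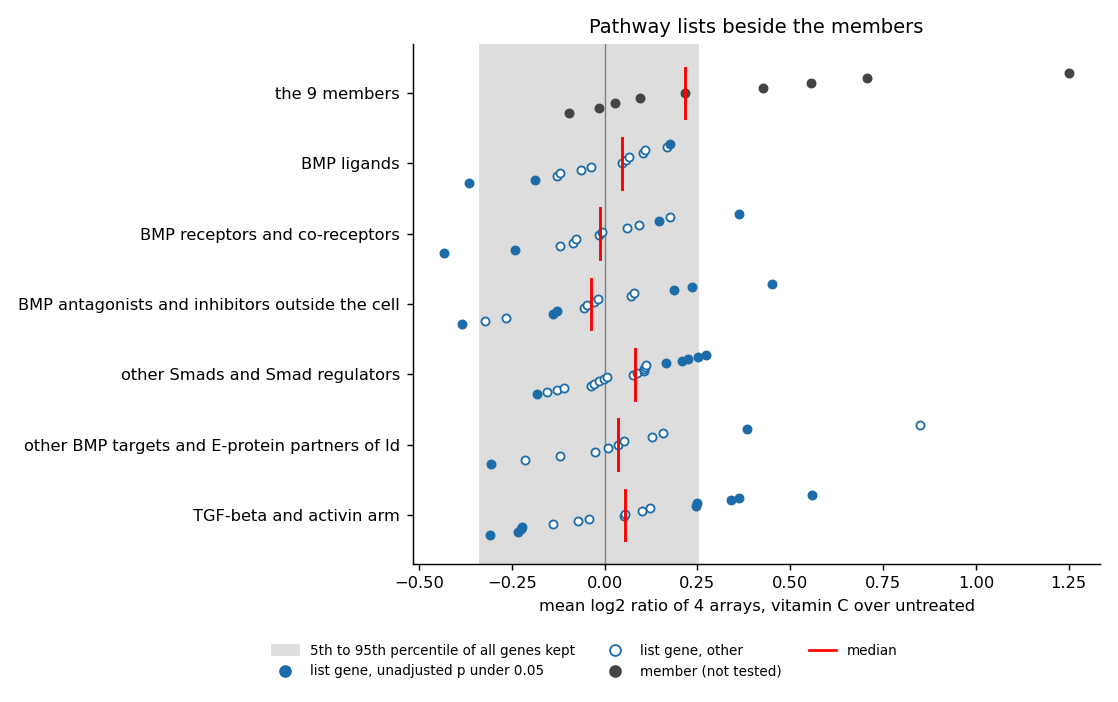
Mean log2 ratio of 4 arrays (x axis) of each kept gene of 6 pathway lists and of the 9 members (rows), with filled blue points at an unadjusted p under 0.05, open points otherwise, dark points for the members, red bars at the medians and a grey band from the 5th to the 95th percentile of all genes. List medians stay between -0.038 and 0.082, and Smad6, Smad7, Id1 and Id2 lie to the right of the band. The members were chosen on these ratios, so nothing is read from their place.

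Among 13 BMP ligand genes, 1 was higher and 2 were lower at an unadjusted p under 0.05, with a median of 0.046. Gdf2, which encodes the circulating ligand BMP9, had ratios of 0.16, 0.016, 0.31 and 0.22, a mean of 0.18 ± 0.12 (adjusted p = 0.158, limma), and a mean of 0.017 without loess. Bmp8a had a mean of -0.37 ± 0.30 and Gdf5 one of -0.19 ± 0.14 (adjusted p = 0.150 and 0.161, limma). Bmp2, another endothelial ligand gene that acts on hepcidin, had 0.11 ± 0.091 and was above 0 on all 4 arrays, with a mean of 0.064 without replicate 4. Gdf5 was at -0.054 with processed signals and at -0.33 without loess.

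Of 12 receptor and co-receptor genes, 2 were higher and 2 lower at that level, with a median of -0.011. Bmpr2, the type II BMP receptor gene, had ratios of -0.17, -0.46, -0.58 and -0.51, a mean of -0.43 ± 0.18 (adjusted p = 0.144, limma). It was below 0 in every pair, opposite in sign to the inhibitory Smads and Id1. Neo1, a binding partner of hemojuvelin, had -0.24 ± 0.16 with its brightest probe and 0.0060 with a further one. Eng, an endothelial co-receptor gene, had 0.27, -0.019, 0.53 and 0.67, a mean of 0.36 ± 0.30 (adjusted p = 0.151, limma). The type I receptor genes Bmpr1a and Acvr1 were at -0.12 ± 0.087 and -0.016 ± 0.063; a dimmer Bmpr1a probe had 0.15, the mean of both probes was 0.013, and Acvr1 was at 0.027 when centred on a running median along intensity and at 0.011 without replicate 1. Hjv, the hemojuvelin gene, was at 0.094 ± 0.14, and at -0.066 without loess, where Neo1 was at -0.40 and Eng at 0.21.

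The list of inhibitors outside the cell, 14 genes, had 3 higher and 3 lower, with a median of -0.038. Tmprss6, a hepatocyte protease gene that restrains hepcidin by cleaving hemojuvelin, had ratios of 0.28, 0.21, 0.26 and 0.19, a mean of 0.24 ± 0.040 (adjusted p = 0.144, limma). It was above 0 on all 4 arrays with a smaller SD than any member, though its mean was 0.030 without loess. Fst, which encodes follistatin, had 0.33, 0.94, 0.46 and 0.063, a mean of 0.45 ± 0.37 (adjusted p = 0.147, limma), and Chrd, the chordin gene, -0.14 ± 0.054. Bambi, a pseudoreceptor gene and BMP target, had 0.19 ± 0.14 with its brightest probe and -0.11 with a dimmer one. Without loess Chrd was at -0.30 and Bambi at 0.048; Chrd was at -0.025 with processed signals and Fst at 0.29 without replicate 2.

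Other Smads and their regulators, 20 genes, had 5 higher and 1 lower, with a median of 0.082. Smad3, an effector of TGF-beta, had 0.12, 0.31, 0.16 and 0.25, a mean of 0.21 ± 0.085 (adjusted p = 0.144, limma), though its dimmer probe had -0.044. Smad2, the other TGF-beta effector, had -0.096, -0.39, -0.14 and -0.11, a mean of -0.18 ± 0.14 (adjusted p = 0.163, limma). Ctdsp2, a phosphatase gene, had 0.27 ± 0.16, and further probes gave 0.45 and 0.29. Fkbp1a, whose protein holds type I receptors inactive, had 0.23 ± 0.13. Smad9, the third BMP-regulated effector gene, was at 0.11 ± 0.11. Without loess Smad3 was at 0.11, Ctdsp2 at 0.16, Fkbp1a at 0.076, Smad9 at 0.19 and Smad2 at -0.34. Smad2 was at -0.11 without replicate 2, and Smad9 at 0.060 without replicate 4 and at 0.058 with processed signals.

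The targets and E-protein partners, 11 genes, had 1 higher and 1 lower, with a median of 0.035. Atoh8, a BMP target gene in hepatocytes, was the higher one: its ratios were 0.49, 0.29, 0.47 and 0.27, a mean of 0.38 ± 0.12 (adjusted p = 0.144, limma). Like Smad6, it was highest on replicates 1 and 3. Msx1, the lower one, had -0.36, 0.062, -0.51 and -0.42, a mean of -0.31 ± 0.25. Hamp had ratios of -0.13, -0.30, -0.055 and 0.63, a mean of 0.035 ± 0.41 (adjusted p = 0.897, limma), so the hepcidin gene was below 0 on 3 of 4 arrays; its mean ran from -0.23 without loess to 0.31 when centred on a running median along intensity, and was -0.16 without replicate 4. Its near copy Hamp2 had 0.77, -1.19, 2.18 and 1.63, a mean of 0.85 ± 1.48, and the signals of such similar genes are uncertain. That mean was 0.41 without replicate 3 and 1.53 without replicate 2 (adjusted p = 0.0168, limma), a setting in which 8764 of all 31073 genes passed.

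Id4 was at 0.0091 ± 0.22, over a range of -0.095 without replicate 4 to 0.17 as the mean of its probes, and at 0.33 ± 0.49 with a dimmer probe that reached 1.02 on replicate 4. The E-protein genes Tcf3, Tcf4 and Tcf12, whose products Id proteins bind, had means of 0.13 ± 0.10, -0.12 ± 0.067 and -0.21 ± 0.24. Without loess they were at -0.029, -0.27 and -0.36, with processed signals at 0.054, -0.023 and -0.067, and without replicate 2 Tcf3 was at 0.083 and Tcf12 at -0.13. A dimmer probe had -0.062 for Tcf3, -0.34 for Tcf4 and 0.085 for Tcf12, so only that of Tcf4 kept the sign.

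The neighbouring TGF-beta and activin arm, 16 genes, had 5 higher and 3 lower, with a median of 0.054. Tgif1, a Smad co-repressor gene, was at 0.36 ± 0.23 and Tgfb1, a ligand gene, at 0.34 ± 0.22 (adjusted p = 0.144 each, limma). Both were above 0 on all 4 arrays.

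Markers of liver cell types were read beside these values. All 8 sinusoidal endothelial markers were measured: their medians were 0.080, -0.15, 0.16 and 0.23 on replicates 1 to 4, and 7 of 8 means were above 0, from -0.060 (Stab2) to 0.34 (Stab1), counting Pecam1, whose mean was 3.27e-06. This order of arrays, lowest on replicate 2 and highest on replicate 4, was also that of both Id1 probes and of the brightest probes of Smad1, Smad4 and Smad5. No further probe of these Smads kept it: that of Smad1 was highest on replicate 3 (0.43) and that of Smad4 lowest on replicate 3 (-0.26). Of the endothelial markers, only Stab1, Stab2, Kdr and Cdh5 kept this order. Lyve1 was lowest on replicate 1 (-0.27) and Clec4g highest on replicate 3 (0.18). Fcgr2b (0.31) and Pecam1 (0.076) were highest on replicate 1. The 6 Kupffer cell markers kept had medians of -0.36, 0.24, 0.048 and 0.40, the 7 stellate cell markers 0.042, -0.14, 0.19 and 0.081, and the 4 T or NK cell markers 0.017, 0.18, 0.25 and 0.35. The hepatocyte markers, 5 of 6 kept, were bright, Alb most of all, with medians of -0.079, -0.29, -0.075 and -0.28. The part of cell composition in the members' ratios was not tested.

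**Figure D5:**
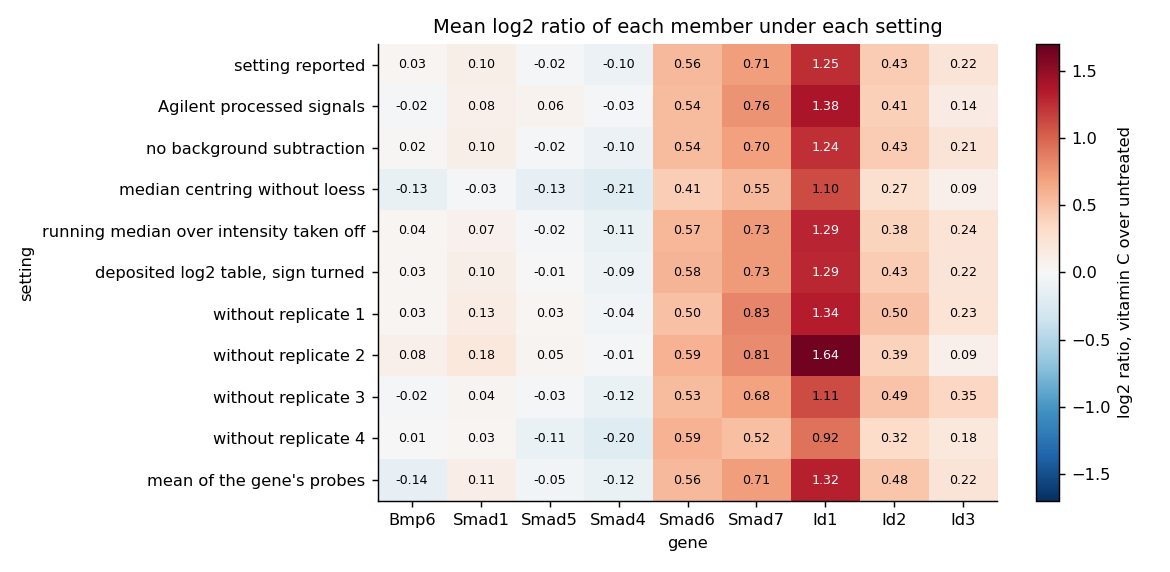
Mean log2 ratio of each member (columns) under the setting reported and each alternative that can change it (rows), printed in each cell and coloured from blue (below 0) to red (above 0). Smad6, Smad7, Id1, Id2 and Id3 are above 0 in every row shown, while Bmp6, Smad1 and Smad5 change sign.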

How the data were processed

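Gene expression was measured on 4 two-colour arrays of an Agilent mouse design, each with 1 treated and 1 untreated liver. The deposited scanner files hold spot intensity values from the Feature Extraction software, version 10.5.1.1 in the file headers, with a log10 ratio of Cy5 over Cy3. The authors also deposited a table of log2 values; the submitters' processing notes name limma, and no source used here gives its steps. Turned in sign, its columns correlated with the ratios computed here at r = 0.95 to 0.98 across probes; its medians were 0.0014 to 0.0050, and its exact scale is unknown. By the dye labels it runs as untreated over treated, opposite to the direction used here, which rests on those labels. The sample titles name the vitamin C liver first and the untreated liver second, and do not say which is the numerator. If the dyes were the reverse, every direction would turn.

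Median signals were background-corrected with normexp (offset 50) and normalized by loess within arrays, control spots at weight 0, outlier spots left out and spots of a probe averaged. Files give median, not mean, foreground signals. Levels of single livers were also scaled with Aquantile. Of 41174 probes, 25097 (61.0%) matched 1 symbol in the RefSeq table of GRCm38.p6. A gene was kept where, on at least 3 arrays, either channel of its brightest probe was well above background. Ratios were tested against 0 with lmFit and eBayes (R 4.3.3, limma 3.58.1, statmod 1.5.0; figures with Python 3.11.15). The fit was tested on simulated data with independent noise for each gene and array. The simulation held no array that stood apart and no dye effect on single probes, so it cannot speak to either. All arrays lay on 1 slide with 1 scan date, so no block could be fitted for either. Each array pairs 2 livers, which its ratio takes into account. The labels call the arrays biological replicates. No exact test was run, since the members are described without one. Precision is limited by the number of arrays.

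Members and lists were chosen with earlier results of these data known. Named genes were the members with every probe, the 3 genes of each list with the smallest p, core pathway genes fixed by name, and the 5 nearest in ratio to Smad6 and to Id1; 1 gene that this rule names is not reported here. Alternatives were other backgrounds, normalizations, filters, fits and probes, the deposited table, and leaving out each replicate.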

Additional observations from a re-analysis of the deposited data

Results flagged for a closer look

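In 2 of the 30 pathway genes examined beside the members, 1 array stood apart from the other 3; chance gives about 1 in 20 such cases, and none was found among the 16 member probes. For Chrd, replicate 2 had a log2 ratio of -0.058, nearer to 0 than the rest. For Smad2, replicate 2 was the lowest, at -0.39.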

How the results depend on the processing

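Smad6, Smad7, Id1, Id2 and Id3 kept a mean above 0 under each alternative tried, with ranges for the brightest probe of 0.41 to 0.59, 0.52 to 0.83, 0.92 to 1.64, 0.27 to 0.50 and 0.088 to 0.35. The other filters and the other variance model could not change these means, so they add nothing here. Smad6, Id2 and Id3 were lowest without loess, and Id1 and Smad7 without replicate 4. Smad1, Smad5 and Bmp6 changed sign in at least 1 setting. The number of members above 0 on every array was 4, or 5 without replicate 2 or 3, where fewer arrays had to be above 0. Over all genes, 14.9% were above 0 on all 4 arrays. That share was not counted with an array left out, so nothing is read from the change. With an array left out, the genes past the adjusted threshold ran from 0 to 8764, those at an unadjusted p under 0.05 from 3119 to 13567, and the pathway genes at that level from 9 to 36. Without loess 9628 genes passed the adjusted threshold and 14643 the unadjusted one, and with Agilent's processed signals 19 pathway genes were at the unadjusted level. With separate channels and the array as replicate block 981 genes passed, and with no replicate block 0 passed, with 4414 genes and 18 pathway genes at the unadjusted level. The causes were not tested. Taking a running median over intensity off moved the share of higher genes at the unadjusted level from 40.3% to 49.6%. Dye and treatment cannot be separated on these arrays.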
